A study of Arabidopsis thaliana with 6 samples.

Results

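NAC proteins are a plant family of transcription factors that share an N-terminal DNA-binding domain. The 10 genes described here are the members best known from stress, taken by gene ID from the 24340 genes of the table. *ANAC013* (AT1G32870) and *ANAC017* (AT1G34190) act in mitochondrial retrograde signalling, by which impaired mitochondria change nuclear transcription. *ANAC053* (AT3G10500) and *ANAC078* (AT5G04410) act in the response to proteotoxic stress. *ANAC032* (AT1G77450), *ANAC102* (AT5G63790), *ATAF1* (AT1G01720) and *ATAF2* (AT5G08790) form the ATAF clade, and *ANAC019* (AT1G52890) and *ANAC055* (AT3G15500) act in jasmonate, abscisic acid and drought responses. The rule for membership uses gene IDs only, but the genes were proposed with earlier results of these data known.

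RNA was sequenced from micro-dissected shoot apices of *Arabidopsis thaliana* *ap1/cal* plants in the Col-0 background, which pile up inflorescence and young floral meristems because *APETALA1* and *CAULIFLOWER* are lost. Apices treated with 1 mM sodium nitroprusside (SNP) were compared with Mock-treated apices, 3 replicates of each, all after 24 h and all with 0.025% Silwet as wetting agent. SNP releases nitric oxide, and the molecule also carries iron and cyanide, whose effects cannot be told apart from those of nitric oxide in this design. Both groups carry the *ap1* and *cal* mutations, so no wild-type apex enters the comparison, and the number of plants behind a replicate is not given in the sources used here.

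Levels are given in TPM, the share of a gene among all transcripts of a library after correction for transcript length, so that levels of different genes can be set side by side. The reads behind them, recovered from the TPM values and the annotated lengths, numbered 51879530 to 63161899 in the SNP libraries and 61863730 to 99089586 in the Mock libraries. One library stood apart: Mock replicate 1 correlated at 0.977 with either of the other Mock libraries, which correlated at 0.991 with each other, and was lower in long transcripts, by a median of 0.43 on the log2 scale from the mean of the 6 libraries for transcripts of at least 2596 bp. Shoot meristem genes marked the tissue in every library, with *STM* at 105 to 132 TPM in SNP apices and 115 to 137 TPM in Mock apices, while the 3 root markers measured reached at most 0.03 TPM. Transcripts of mature leaf were found too, with 4 markers summing to 2604 to 3262 TPM in SNP libraries and 1970.0 to 2851 TPM in Mock libraries. The summed level of 7 meristem and young flower markers was lower in every SNP library, at 452 to 496 TPM, against 515 to 598 TPM in Mock libraries. Of these 7 genes, 4 had a negative and 3 a positive log2 fold change. By the rule for a changed gene given below, 1 of the 7 was higher and none was lower, against 10.5% and 6.4% of all genes tested. At an adjusted p under 0.05 (limma), 1 was higher and 2 were lower, against 16.6% and 13.0%. No batch is given in the labels.

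Of the 10 genes, 8 rose in SNP apices and none fell, where a gene counts as changed if it differed by at least 1.5-fold with an unadjusted p under 0.01 (limma on log2 of TPM + 0.5). Among all 18966 genes tested, 10.5% were higher and 6.4% were lower by that rule. The median log2 fold change of the 10 genes was 1.80, against 0.06 for all genes tested. In all 10 genes every SNP library lay above every Mock library, which held for 29.2% of all genes tested. At an unadjusted p under 0.05, 9 of the 10 were higher and none was lower, against 23.4% and 18.7% of all genes tested. The 8 rises had a Benjamini-Hochberg adjusted p of 0.00106 or less in limma, and *ANAC017* and *ANAC078* were the 2 genes that did not pass. With 3 libraries against 3, an exact permutation test of a single gene cannot go below p = 0.1, and all 10 genes gave this value. All 10 passed the filter of a mean of at least 0.5 TPM, *ANAC055* only through the SNP libraries.

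**Figure D1:**
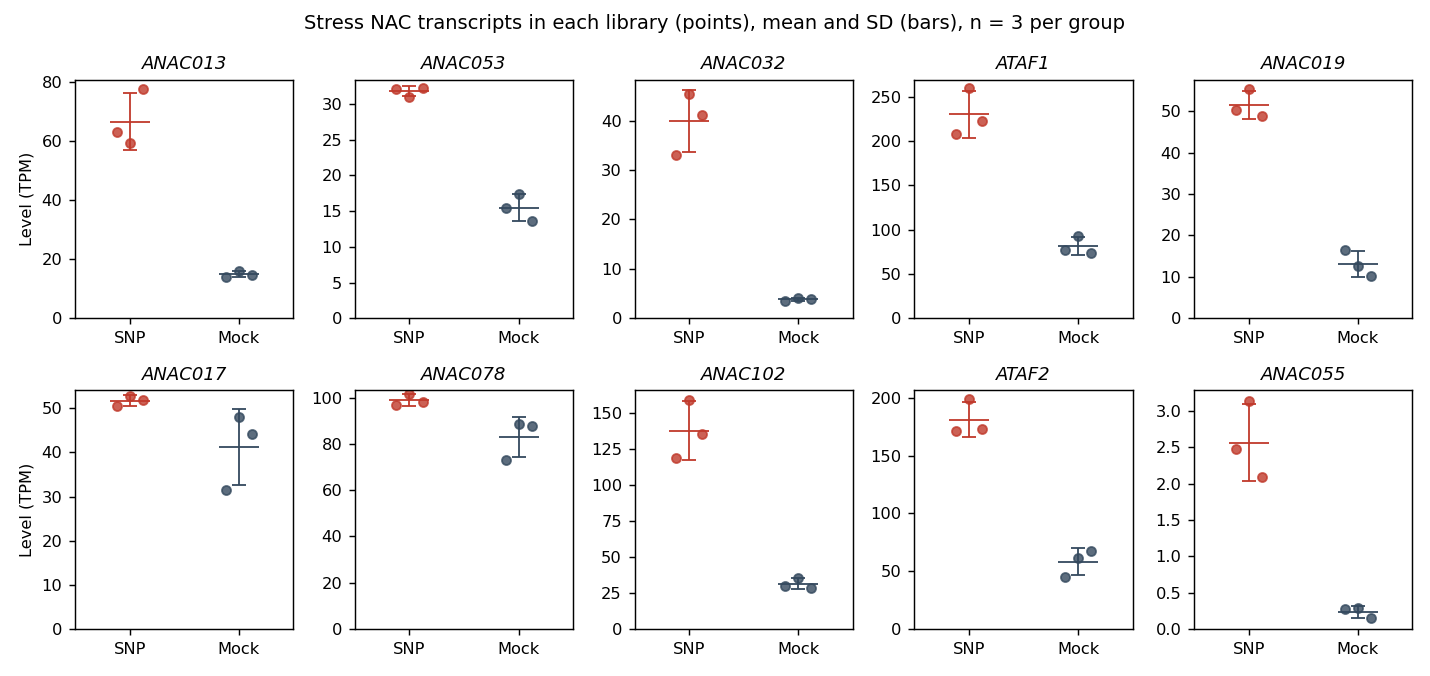
Level of each of the 10 stress NAC genes in TPM in the SNP and Mock libraries (points), with the mean and SD of 3 libraries per group; each panel has its own linear axis that starts at 0. The groups do not overlap in any panel, and *ANAC017* and *ANAC078* have the smallest ratios of the group means, at 51.8 against 41.3 TPM and 98.9 against 83.1 TPM.

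The mitochondrial pair responded unequally. ANAC013 and ANAC017 are held at the endoplasmic reticulum by a hydrophobic segment near their C-terminus and are thought to be cut loose when mitochondria fail, so that activity depends on release as well as on transcript level. *ANAC013* stood at 62.9, 59.1 and 77.5 TPM in SNP apices, against 14.0, 16.0 and 14.8 TPM in Mock apices. The lowest SNP library was thus far above the highest Mock library, and the log2 fold change was 2.11 ± 0.12 (SE, limma, adjusted p = 9.81e-05). *ANAC017* stood at 50.4, 52.8 and 52.0 TPM in SNP apices, against 31.5, 48.0 and 44.3 TPM in Mock apices. Its log2 fold change of 0.35 ± 0.16 did not pass the test (SE, limma, adjusted p = 0.139), and the lowest of its Mock values came from Mock replicate 1, without which the value was 0.17. The annotated *ANAC017* transcript is 2626 bp long, in the length class in which that library was low.

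The ratio of the related genes was compared within each library. *ANAC013* over *ANAC017* had log2 ratios of 0.31, 0.16 and 0.57 in SNP libraries, against -1.14, -1.55 and -1.55 in Mock libraries. *ANAC013* was therefore the lower of the pair in every Mock library and the higher in every SNP library, a difference of 1.76 ± 0.18 (SE) on the log2 scale. The two-sided exact permutation p was 0.1, the smallest that this design allows, and 0.125 after adjustment over the 5 pairs compared.

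The proteotoxic stress pair had the same kind of split. ANAC053 and ANAC078 bind promoters of proteasome genes when the proteasome is impaired, and they too carry a C-terminal membrane segment. *ANAC053* stood at 32.1, 31.0 and 32.3 TPM in SNP apices, against 15.5, 17.4 and 13.6 TPM in Mock apices. The groups were far apart, with a log2 fold change of 1.02 ± 0.11 (SE, limma, adjusted p = 0.00106). *ANAC078* stood at 96.8, 102 and 98.2 TPM in SNP apices, against 73.1, 88.6 and 87.7 TPM in Mock apices. It was the more abundant of the pair in all 6 libraries, and its log2 fold change of 0.25 ± 0.10 did not pass the test (SE, limma, adjusted p = 0.0917); without Mock replicate 1 it was 0.16. The log2 ratio of *ANAC053* over *ANAC078* averaged -1.62 ± 0.07 in SNP libraries and -2.39 ± 0.23 in Mock libraries (SD, n = 3 each), without overlap between the groups (two-sided exact permutation p = 0.1, adjusted p = 0.125).

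All 4 genes of the ATAF clade rose. These factors lack a membrane segment and are known from senescence, carbon starvation, detoxification and defence. *ANAC032*, which is also induced by reactive electrophiles, stood at 33.1, 45.4 and 41.1 TPM in SNP apices, against 3.40, 4.17 and 3.82 TPM in Mock apices. This was the highest log2 fold change of the 10 genes, 3.22 ± 0.14 (SE, limma, adjusted p = 3.62e-05), and the mean TPM was 10.5-fold higher. *ANAC102*, known from low-oxygen and high-light responses, stood at 119, 159 and 136 TPM in SNP apices, against 29.8, 35.7 and 28.4 TPM in Mock apices, a log2 fold change of 2.12 ± 0.14 (SE, limma, adjusted p = 0.000144).

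*ATAF1*, which links abscisic acid to senescence, stood at 208, 260 and 222 TPM in SNP apices, against 77.4, 92.5 and 73.4 TPM in Mock apices. Its log2 fold change was 1.5 ± 0.12 (SE, limma, adjusted p = 0.000386). *ATAF2*, known from wounding, defence and brassinosteroid turnover, stood at 172, 199 and 173 TPM in SNP apices, against 45.1, 61.8 and 67.9 TPM in Mock apices. Its log2 fold change was 1.65 ± 0.16 (SE, limma, adjusted p = 0.000714), and the highest values of all 10 genes in SNP apices were those of *ATAF1* and *ATAF2*.

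Within the clade the gene with the lowest Mock level had the largest rise. The log2 ratio of *ANAC032* over *ATAF1* averaged -2.52 ± 0.11 in SNP libraries and -4.24 ± 0.13 in Mock libraries (SD, n = 3 each), a difference of 1.73 ± 0.10 (SE) with no overlap between the groups. The log2 ratio of *ANAC102* over *ATAF2* averaged -0.40 ± 0.11 in SNP libraries and -0.87 ± 0.34 in Mock libraries, which differed by 0.47 ± 0.20 (SE), and by 0.29 without Mock replicate 3, the smallest difference among the pairs whose groups did not overlap. Both pairs gave a two-sided exact permutation p of 0.1 (adjusted p = 0.125, 5 pairs).

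Both genes of the jasmonate and abscisic acid pair rose, and they differed widely in level. *ANAC019* stood at 50.3, 55.3 and 48.7 TPM in SNP apices, against 16.5, 12.7 and 10.3 TPM in Mock apices, a log2 fold change of 1.95 ± 0.17 (SE, limma, adjusted p = 0.000453). *ANAC055* stood at 2.47, 3.13 and 2.09 TPM in SNP apices, against 0.28, 0.28 and 0.14 TPM in Mock apices. These values rest on 120 to 145 recovered reads in the SNP libraries and 13 to 21 in the Mock libraries, so the Mock level is imprecise, while the groups are far apart. Its log2 fold change of 2.05 ± 0.18 (SE, limma, adjusted p = 0.000473) understates the 11-fold difference of the mean TPM, since 0.5 TPM was added to each value. The log2 ratio of *ANAC019* over *ANAC055* averaged 4.10 ± 0.15 in SNP libraries and 4.20 ± 0.22 in Mock libraries (SD, n = 3 each), a difference of -0.10 ± 0.16 (SE) with overlapping groups (two-sided exact permutation p = 0.7). This difference depends on the value added to the TPM. With nothing added, an alternative chosen after seeing the data, the log2 ratio was 4.14 to 4.54 in SNP libraries and 5.49 to 6.16 in Mock libraries, without overlap, a difference of -1.51 ± 0.23 (SE, two-sided exact permutation p = 0.1). The mean TPM was 11-fold higher for *ANAC055* and 3.91-fold higher for *ANAC019*.

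**Figure D2:**
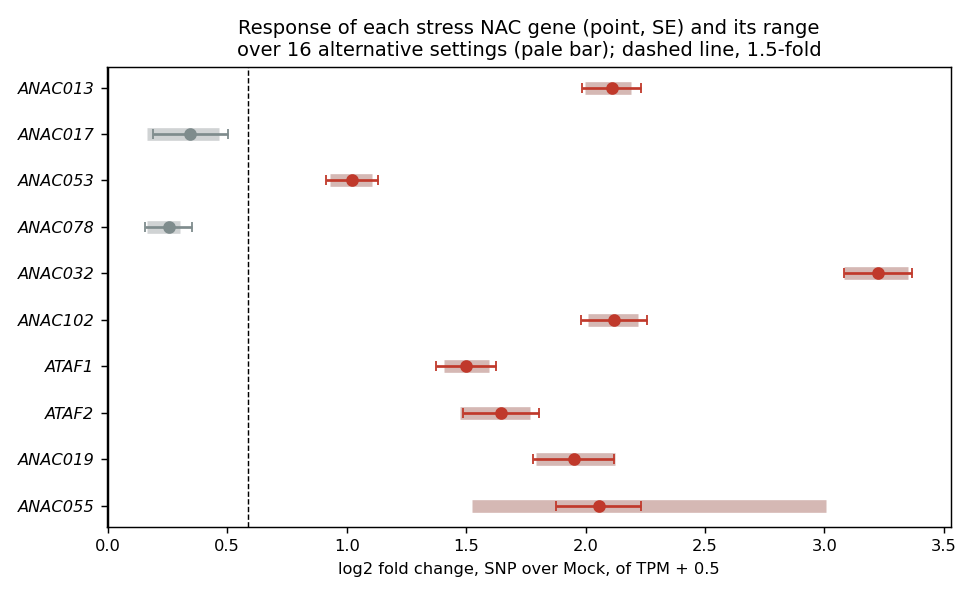
log2 fold change of TPM + 0.5, SNP over Mock, of each gene (point) with its standard error from limma (bar, n = 3 per group), and the range over 16 alternative settings (pale bar); genes in red passed the criterion and the dashed line marks 1.5-fold. *ANAC032* lies highest at 3.22, *ANAC017* and *ANAC078* lie below the dashed line, and *ANAC055* has the widest range, 1.52 to 3.01, whose ends are pseudocounts of 1 and 0.1 TPM.

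**Figure D3:**
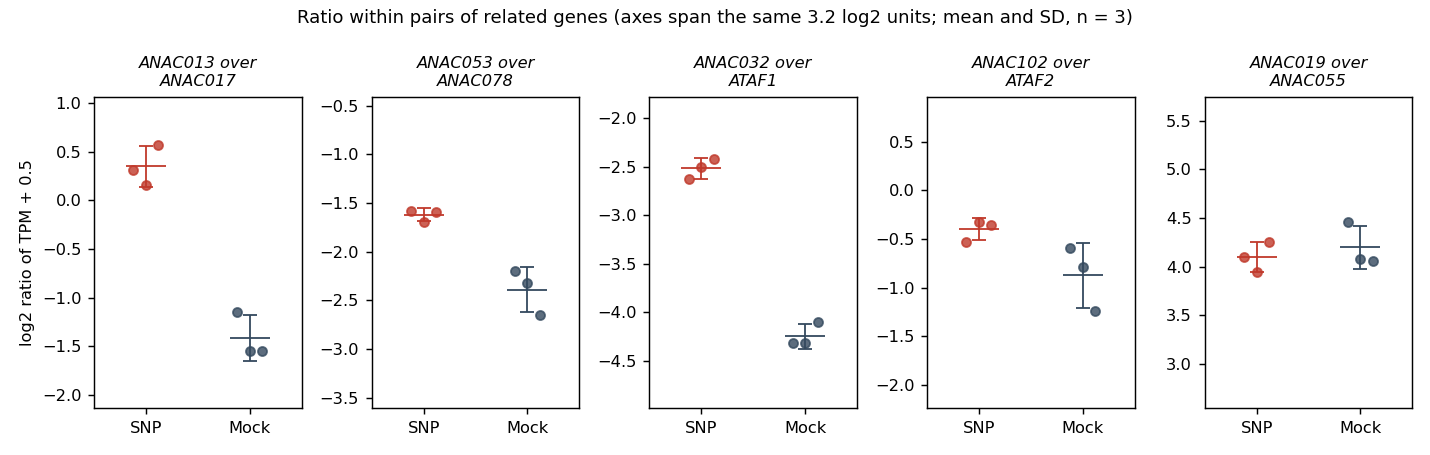
log2 ratio of TPM + 0.5 within 5 pairs of related genes in each SNP and Mock library (points), with the mean and SD of 3 libraries; the 5 axes span the same range. The ratio is higher in all SNP libraries for 4 pairs; for *ANAC019* over *ANAC055* it overlaps with 0.5 TPM added, as drawn, and is lower in all SNP libraries with nothing added.

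The order of the levels changed with these rises. In SNP apices the mean TPM ran from *ATAF1* (230.1) through *ATAF2* (181), *ANAC102* (138), *ANAC078* (98.9), *ANAC013* (66.5), *ANAC017* (51.8), *ANAC019* (51.5), *ANAC032* (39.9) and *ANAC053* (31.8) to *ANAC055* (2.57). Neighbours in this order had separate ranges in 8 of 9 cases, the exception being *ANAC017* and *ANAC019*. In Mock apices the order was *ANAC078* (83.1), *ATAF1* (81.1), *ATAF2* (58.3), *ANAC017* (41.3), *ANAC102* (31.3), *ANAC053* (15.5), *ANAC013* (14.9), *ANAC019* (13.2), *ANAC032* (3.80) and *ANAC055* (0.23). Neighbours there had overlapping ranges in 5 of 9 cases, among them the top pair and the run from *ATAF2* to *ANAC102*.

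Summed over the 10 genes, the level was 827, 966 and 883 TPM in SNP apices, against 307, 377 and 344 TPM in Mock apices. The mean sum was 2.60-fold higher. The ATAF clade made up 65.9 ± 2.4% of the sum in SNP apices and 50.9 ± 0.5% in Mock apices (SD, n = 3 each). The share of *ANAC053* and *ANAC078* was 14.7 ± 0.9% in SNP apices and 28.8 ± 0.7% in Mock apices. In bulk apices a higher level per cell and more cells that express a gene cannot be told apart.

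What the proteins share was computed from the longest coding sequence of each gene in RefSeq. ANAC013, ANAC017, ANAC053 and ANAC078 are 564, 557, 549 and 567 residues long, and the other 6 are 253 to 322 residues long. The most hydrophobic stretch of 19 residues in the last 80 had a mean Kyte-Doolittle hydropathy of 2.53 in ANAC013 (residues 535 to 553), 2.74 in ANAC017 (526 to 544), 2.26 in ANAC053 (522 to 540) and 2.41 in ANAC078 (543 to 561). In the other 6 it was at most 0.55. The pairs compared above are 36.7% (ANAC013 and ANAC017), 68.8% (ANAC053 and ANAC078), 59.5% (ANAC032 and ATAF1), 65.7% (ANAC102 and ATAF2) and 72.3% (ANAC019 and ANAC055) identical over a global alignment. Reads that fit both copies of such a pair may have been split or dropped, since the handling of such reads is not given in the sources used here.

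The NAC family as a whole gives the setting. Of 118 genes annotated as NAC, 110 were in the table and 67 passed the filter, of which 22 rose and 1 fell. Without the 10 genes, 14 of 57 rose, a share of 24.6% against 10.5% of all genes tested, and the median log2 fold change was 0.21. Among the 14, *ANAC047*, *ORE1*, *ANAC018* and *ANAC042* passed the filter only through the SNP libraries, with Mock means of 0.24, 0.34, 0.32 and 0.21 TPM. Their entry to the test thus depended on being high in SNP apices. The largest rises were those of *ANAC047*, *ORE1*, *ANAC032*, *NAP* and *ANAC102*. *ANAC047*, known from leaf bending under waterlogging and from senescence, stood at 8.89, 11.9 and 11.2 TPM in SNP apices, against 0.09, 0.26 and 0.37 TPM in Mock apices, a log2 fold change of 3.92 ± 0.19 (SE, limma, adjusted p = 5.15e-05). *ORE1* (ANAC092) and *NAP* (ANAC029), both drivers of leaf senescence, had log2 fold changes of 3.39 ± 0.26 and 3.07 ± 0.38. The fall was that of *CUC3* (ANAC031), an organ boundary gene, at 13.2, 17.1 and 13.4 TPM in SNP apices, against 23.0, 37.8 and 29.4 TPM in Mock apices (log2 fold change -1.0 ± 0.19, limma, adjusted p = 0.00974).

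Rises were found among NAC genes with and without a C-terminal hydrophobic stretch. The hydropathy measure left a gap, with 15 of 118 proteins at 1.94 or above and the next at 1.11. It was taken on the longest coding sequence of each gene, so a stretch found only in another isoform would be missed. Of the 14 tested genes with such a stretch, 5 rose, with a median log2 fold change of 0.32. Of the 53 without one, 17 rose and 1 fell, with a median of 0.28. Among all genes tested, 10.5% were higher and 6.4% lower. With the 10 members left out, 3 of 10 genes with a stretch rose, and of 47 without one 11 rose and 1 fell. *ANAC047*, *ORE1*, *ANAC018*, *ANAC042* and *ANAC055*, all without a stretch, passed the filter only through the SNP libraries. Among the 10 members, 2 of the 4 with a stretch rose and 6 of the 6 without one. Besides *ANAC013* and *ANAC053*, *ANAC001*, *ANAC060* and *ANAC089* rose among the genes with a stretch, with log2 fold changes of 1.30 ± 0.17, 0.71 ± 0.19 and 0.78 ± 0.10 (SE).

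**Figure D4:**
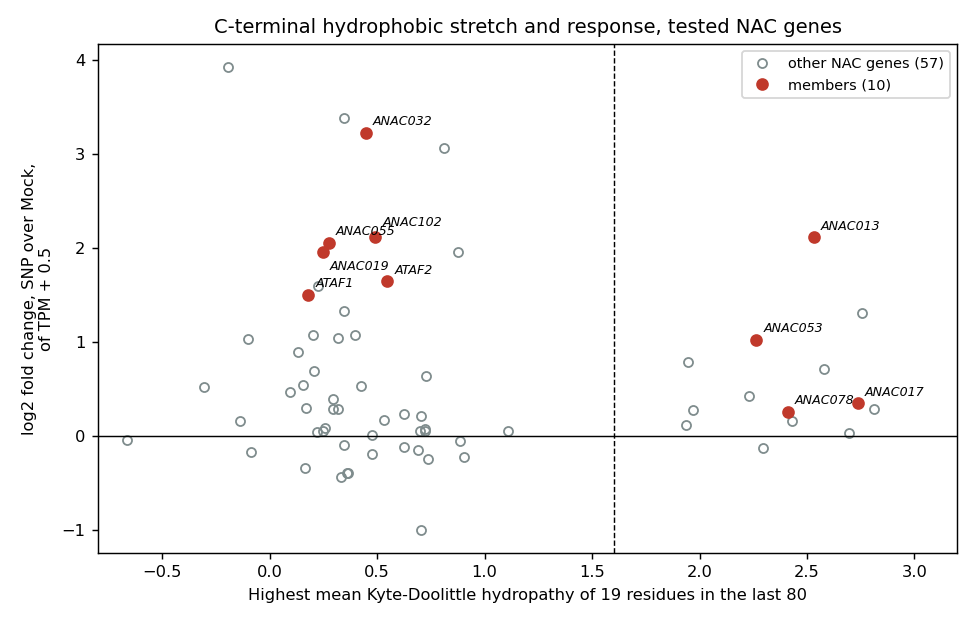
log2 fold change of TPM + 0.5, SNP over Mock, of 67 tested NAC genes against the highest mean hydropathy of 19 residues in the last 80 of the protein; filled points are the 10 stress NAC genes, open points the other 57, and the dashed line separates the proteins with a hydrophobic stretch. Genes with a stretch lie between -0.13 and 2.11, and genes without one between -1.0 and 3.92.

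NAC genes that sit beside a member on the chromosome did not all move with it. *ANAC016*, next to *ANAC017*, was at 0.82, 0.49 and 0.89 TPM in SNP apices, against 0.26, 0.14 and 0.09 TPM in Mock apices, and failed the filter on low values. *ANAC050* and *ANAC051*, beside *ANAC053*, had log2 fold changes of -0.12 ± 0.16 and 0.23 ± 0.25 (SE), and neither passed the test. *ANAC018*, next to *ANAC019*, rose, with 0.78, 2.06 and 1.06 TPM in SNP apices, against 0.32, 0.26 and 0.39 TPM in Mock apices (log2 fold change 1.07 ± 0.26, limma, adjusted p = 0.0232). *ANAC056*, next to *ANAC055*, stayed at or below 0.20 TPM in every library.

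The known targets of ANAC013 and ANAC017 rose as a group. These genes encode alternative respiratory enzymes, mitochondrial chaperones and detoxifying enzymes. Of the 14 listed, 14 passed the criterion, with a median log2 fold change of 3.04, against 10.5% higher and a median of 0.06 among all genes tested. The list was chosen with earlier results of these data known, so this count is no independent result. *AOX1D*, with a Mock mean of 0.30 TPM, passed the filter only through the SNP libraries. *AOX1A*, the alternative oxidase that bypasses part of the respiratory chain, stood at 117, 97.5 and 131 TPM in SNP apices, against 12.8, 10.6 and 12.2 TPM in Mock apices, a log2 fold change of 3.22 ± 0.13 (SE, limma, adjusted p = 2.48e-05). The largest rises were those of AT2G04050, a MATE-type transporter, and *UGT74E2*, which glycosylates indole-3-butyric acid, with log2 fold changes of 4.96 ± 0.19 and 4.89 ± 0.12. The smallest was that of *MGE1*, a mitochondrial chaperone partner, at 0.62 ± 0.16, a call lost after either other scaling and without Mock replicate 1 or 2 or SNP replicate 2 or 3, with values of 0.48 to 0.68. *OM66*, an outer mitochondrial membrane protein, passed narrowly, at 27.9, 24.3 and 27.1 TPM in SNP apices, against 6.27, 6.91 and 19.9 TPM in Mock apices (adjusted p = 0.0351, limma), and lost the call without any one of 5 of the 6 libraries, with values of 1.13 to 1.47 on the log2 scale.

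Many of these targets carry the mitochondrial dysfunction motif, the DNA element that ANAC013 and ANAC017 bind. It was searched as CTTG, any 5 bases, and then CAAG or CACG, on both strands from 250 bases before to 50 bases after each annotated gene start, in the TAIR10.1 assembly of RefSeq. The motif was present in 10 of the 14 targets, in 1.42% of all 27443 promoters and in 1 of the 10 NAC genes, *ANAC017*. The targets were in part named in earlier work for carrying this element, so their share is no independent result. The sites of 5 targets and of *ANAC017* are shown because they show the letters that are held fixed and those that vary; the motif is in capitals, each is read 5′ to 3′ on the strand of its gene, and in *ANAC017* the motif lies on the other strand.
*AOX1A*, chr3:7906513-7906535, + strand: tagctCTTGGCGACCACGcaagt
*AOX1A*, second site, chr3:7906540-7906562, + strand: tccatCTTGCTCTCCAAGaaaaa
*UPOX*, chr2:9254322-9254344, + strand: agtaaCTTGCTCTCCAAGgagat
*NDB2*, chr4:2572343-2572365, + strand: tctggCTTGGCCACCAAGattgt
*HSP23.5*, chr5:20891048-20891070, + strand: ttttaCTTGGAGACCACGcagtt
*UGT74E2*, chr1:1704808-1704830, - strand: cacatCTTGGTCGCCACGgaaca
*ANAC017*, chr1:12451290-12451312, + strand: tctgtCGTGTCAGACAAGaatgt
The second *AOX1A* site and the *UPOX* site hold the same 13 letters. The *ANAC017* site lies 110 to 98 bases before the start. *ANAC013* held no match in this window, and sequence further upstream was not searched.

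The promoters of the members were also searched for TGACG, the core of the as-1 element bound by TGA factors, which is known from genes induced by electrophiles. It was present in 4 of the 10 members and in 23.1% of all promoters, a difference that was not tested. These 4 sites or groups of sites are shown because they fall on both genes that rose and one that did not pass the test; TGACG, or CGTCA where it lies on the other strand, is in capitals.
*ANAC032*, chr1:29099743-29099757, + strand: tagtcTGACGtaagc
*ANAC102*, chr5:25528361-25528375, - strand: ctcaaTGACGtatgc
*ANAC053*, chr3:3271113-3271127, + strand: ggatgCGTCAgcgac
*ANAC078*, first of 3 sites, chr5:1243618-1243632, + strand: ggtgtTGACGtgtca
The sites of *ANAC032* and *ANAC102* lie 91 to 87 and 89 to 85 bases before the start. *ATAF1*, *ATAF2*, *ANAC013*, *ANAC019* and *ANAC055* rose with no match in this window, and *ANAC078*, which held the element, did not pass the test. A part of the element in the rises was not tested. A match of letters does not show that a factor binds there.

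The proteasome genes did not rise with *ANAC053*. None of the 34 listed genes of the 26S proteasome and its partner CDC48A passed the criterion in either direction, with a median log2 fold change of -0.19 and a range of -0.53 to 0.22. At an unadjusted p under 0.05, 12 of the 34 were lower and none was higher (limma), against 18.7% lower and 23.4% higher among all genes tested. By an adjusted p under 0.05 with no fold limit, 5 were lower and none was higher (limma), against 13.0% lower and 16.6% higher among all genes tested. *PBG1*, a core particle subunit, stood at 125, 152 and 117 TPM in SNP apices, against 209, 166 and 194 TPM in Mock apices, a log2 fold change of -0.53 ± 0.13 (SE, limma, adjusted p = 0.0232) that stays under 1.5-fold. TGGGC, the element through which ANAC053 and ANAC078 act on proteasome genes, was present in 21 of these 34 promoters, in 26% of all promoters and in 1 of the 10 members, *ANAC017*. The NADPH oxidase genes *RBOHA*, *RBOHC* and *RBOHE*, which ANAC053 activates in drought, reached at most 0.73 TPM in any library and failed the filter.

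Of 8 known targets of the ATAF clade, 3 rose, none fell, and 5 did not pass the criterion. Among all genes tested, 10.5% were higher and 6.4% lower, and the difference from these shares was not tested. *NIT2*, a nitrilase that ATAF2 controls, stood at 115, 125 and 132 TPM in SNP apices, against 0.28, 0.68 and 0.71 TPM in Mock apices, a log2 fold change of 6.91 ± 0.19 (SE, limma, adjusted p = 9.21e-06). *ORE1* and *TRE1*, a senescence regulator and a trehalase that ATAF1 activates, had log2 fold changes of 3.39 ± 0.26 and 3.15 ± 0.28. Already counted in the NAC family, *ORE1* had a Mock mean of 0.34 TPM and passed the filter only through the SNP libraries. *MYBL2*, a repressor of anthocyanin genes known as an ANAC032 target, stood at 43.7, 46.6 and 44.8 TPM in SNP apices, against 21.9, 37.9 and 17.9 TPM in Mock apices, and narrowly missed the criterion (adjusted p = 0.0412, limma); without Mock replicate 2 it passed, with a log2 fold change of 1.16. *GLK1*, a chloroplast regulator that ATAF1 represses, was at 17.3, 17.5 and 17.9 TPM in SNP apices, against 8.84, 19.6 and 30.4 TPM in Mock apices. *NCED3* of abscisic acid synthesis and the brassinosteroid-inactivating genes *CYP734A1* and *CYP72C1* had log2 fold changes of 0.52 ± 0.26, 0.16 ± 0.13 and 0.33 ± 0.13 (SE). The list mixes targets that are activated and repressed, so its counts of rises and falls do not show whether these factors were more active.

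Of the 5 known targets of ANAC019 and ANAC055, 4 were tested, and 1 rose and 1 fell. Among all genes tested, 10.5% were higher and 6.4% lower, and the difference from these shares was not tested. *ERD1*, a chloroplast Clp regulatory subunit induced by drought and darkness, stood at 52.5, 56.9 and 54.7 TPM in SNP apices, against 15.2, 23.3 and 20.7 TPM in Mock apices, a log2 fold change of 1.47 ± 0.16 (SE, limma, adjusted p = 0.00101). *VSP1*, a jasmonate-induced storage protein that these factors promote, stood at 2300.5, 3264 and 2944 TPM in SNP apices, against 5146, 4408 and 5602 TPM in Mock apices. It fell, with a log2 fold change of -0.84 ± 0.17 (SE, limma, adjusted p = 0.0122), a call that was lost when no filter on low values was used (adjusted p = 0.0519). *LOX2* and *ICS1* did not pass the test, with log2 fold changes of -0.44 ± 0.34 and 0.03 ± 0.22, and *BSMT1* failed the filter.

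None of the 4 tested genes that act on these factors passed the criterion in limma, and 3 of them were higher at an unadjusted p under 0.05, as were 23.4% of all genes tested. *RCD1*, whose protein binds and restrains ANAC013 and ANAC017, stood at 134, 131 and 129 TPM in SNP apices, against 96.3, 105 and 91.2 TPM in Mock apices, without overlap but under 1.5-fold (log2 fold change 0.43 ± 0.08, limma, adjusted p = 0.00936). With the trend with transcript length removed its log2 fold change was 0.21 (adjusted p = 0.423, limma). Its relative *SRO1* was at 50.4, 52.7 and 50.3 TPM in SNP apices, against 50.2, 50.3 and 52.8 TPM in Mock apices. *COI1*, the jasmonate receptor upstream of *ANAC019* and *ANAC055*, had a log2 fold change of 0.39 ± 0.08 (adjusted p = 0.0133, limma, and 0.00683 to 0.0766 over the alternatives), also under 1.5-fold. *RBL2*, a rhomboid protease of the kind that releases membrane-bound factors, stood at 13.9, 18.8 and 15.1 TPM in SNP apices, against 7.17, 11.8 and 12.7 TPM in Mock apices, and did not pass the test (log2 fold change 0.60, adjusted p = 0.0883, limma); without Mock replicate 1 the log2 fold change was 0.35.

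**Figure D5:**
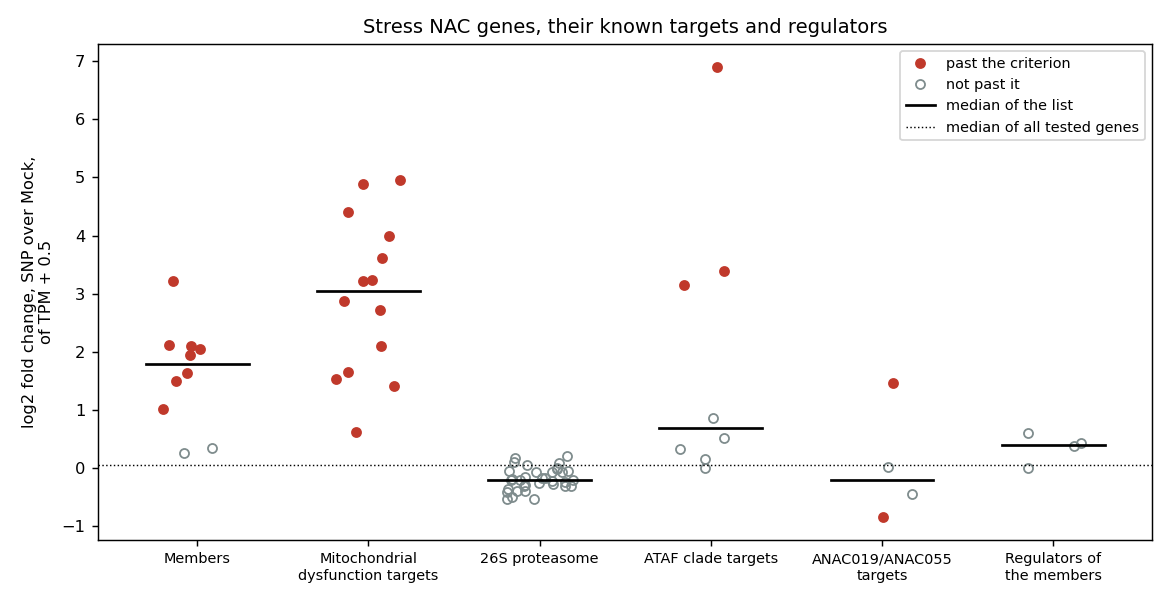
log2 fold change of TPM + 0.5, SNP over Mock, of the 10 stress NAC genes and of the tested genes in 5 lists of their known targets and regulators; filled points passed the criterion, bars are list medians, and the dotted line is the median of all tested genes, 0.06. The mitochondrial dysfunction targets have a median of 3.04 with all 14 past the criterion, and the proteasome genes a median of -0.19 with none past it.

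Some markers of senescing leaf tissue rose, as did the ATAF clade. Of 8 senescence genes tested, 4 rose and none fell, against 10.5% higher and 6.4% lower among all genes tested. The summed level of the 8 was 223 to 455 TPM in SNP apices and 84.0 to 91.5 TPM in Mock apices. *NAP* is both on this list and in the NAC family, *ASN1* (log2 fold change 5.24 ± 0.69) was the largest part of the sum in SNP apices, and the chlorophyll breakdown genes *PPH* and *PAO* had log2 fold changes of 0.09 ± 0.09 and 0.03 ± 0.12. The summed level of 4 mature leaf markers was 2604 to 3262 TPM in SNP apices and 1970.0 to 2851 TPM in Mock apices, with *LHCB2.1* the 1 that passed, lower. The part of these tissues and states in the rise of the NAC genes was not tested.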

How the data were processed

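Poly-A RNA of 3 SNP and 3 Mock samples of *ap1/cal* shoot apices was sequenced with a strand-specific kit. The authors mapped the reads with STAR to TAIR10 and deposited TPM values per gene and library. Whether counting used strand is not given in the sources used here, and 5 of the 10 genes (*ANAC013*, *ANAC078*, *ANAC102*, *ATAF1* and *ATAF2*) overlap an annotated gene on the opposite strand. The deposited table also holds the authors' log2 fold changes and p-values for SNP against Mock, which were not used. The study's methods name DEGseq and the submitters' notes name DESeq2 for that comparison.

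Reads were recovered from TPM and annotated length, and 99.4% of values came out whole within 0.05 read. The 18966 genes whose mean reached 0.5 TPM were tested with limma 3.58.1 (lmFit, eBayes with a trend, R 4.3.3) on log2(TPM + 0.5), SNP against Mock, with the study's limits of 1.5-fold and p under 0.01, and Benjamini-Hochberg adjustment over all tested genes. The fit was checked on simulated data with known changes. Ratios within pairs were tested by exact permutation (scipy 1.17.1). Replicates are biological per the study's methods, and which plants each came from is not labelled. The p-values therefore weigh the group difference against the spread between these libraries only. In limma that spread is also drawn toward a trend over all tested genes.

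All 10 members are given in full. For the other lists the counts are given, with up to 2 of the largest rises and falls and genes known as direct targets of a member, and for the NAC family the 5 largest rises and falls with groups that do not overlap. *ANAC016*, *ANAC018*, *ANAC050*, *ANAC051*, *ANAC056*, *ANAC001*, *ANAC060*, *ANAC089*, *PBG1* and the genes named among those that did not pass fall outside that rule and were named after their values were seen. The members and lists were chosen with earlier results of these data known. Alternatives changed the pseudocount, the filter, the scaling, the variance model, a trend with length, the replicate block, the libraries and the criterion; those for the pairs were added after seeing the data. Gene names, coordinates, coding sequences and promoters come from RefSeq's TAIR10.1 annotation. *MYC2*, *SAG12* and *RHD6* were not analysed here.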

Additional observations from a re-analysis of the deposited data

How the results depend on the processing

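The 8 rises and the absence of falls among the 10 genes were the same under all 18 alternatives, and none of the 160 single-gene values of the members changed its call or direction. The number of all tested genes past the criterion was 3205, and 2724 to 3339 when each library was left out in turn. It was 5619 with an adjusted p under 0.05 and no fold limit, and 1474 with a fold change of at least 2. Of the calls in the main setting 62.1% were higher, against 51.3% after 75th percentile scaling (1703 higher and 1619 lower, against 1991 and 1214), and the median of all tested genes was -0.03 after that scaling, against 0.06. Same-numbered SNP and Mock libraries deviated together with correlations of 0.304, -0.0017 and -0.091. Libraries with different numbers were not compared in this way, so these values do not settle whether the numbers pair the samples. With a replicate block, 8 members were higher and 2156 genes in all were higher and 1301 lower. Alternatives for the pairs were added after seeing the data. The difference of *ANAC019* over *ANAC055*, -0.10 with 0.5 TPM added, was 0.39 with 1 TPM added, -1.02 with 0.1 TPM and -1.51 with none, and -0.18 to 0.025 when each library was left out, turning positive without Mock replicate 1; the other 4 pairs kept their direction and separate groups. With the block *RBL2* and *MYBL2* passed the criterion. Removing the length trend gave log2 fold changes of 0.25 for *ANAC017* and 0.18 for *ANAC078*, neither past 1.5-fold. Of the 14 mitochondrial targets, 11 to 14 passed when a library was left out, the losses being *MGE1*, *At12Cys-2* and *OM66*. Of the proteasome genes 1 was lower after either other scaling and up to 2 when a library was left out, with *PBG1* and *PAG1* the 2 that passed without Mock replicate 2. The NAC family had 18 to 25 rises over the alternatives. Depth limits *ANAC055* most, whose Mock values rest on 13 to 21 reads; 3 libraries per group allow no exact p below 0.1. Values are mRNA levels in whole apices, and release of the membrane-bound factors was not measured.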

Other observations

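Of the 7 NAC genes VND1 to VND7, regulators of xylem vessel differentiation, 2 rose and 5 did not pass the criterion. Among all genes tested, 10.5% were higher and 6.4% lower, and the difference from these shares was not tested. *ANAC030* (VND7) and *ANAC076* (VND2) had log2 fold changes of 1.07 ± 0.22 and 0.69 ± 0.15 (SE), with *ANAC030* at 1.70, 3.01 and 2.07 TPM in SNP apices, against 0.60, 0.78 and 1.01 TPM in Mock apices. The other 5 had log2 fold changes of 0.05 (*ANAC037*, VND1) to 0.54 (*ANAC007*, VND4). *ANAC083* (VNI2), which interacts with VND7 and restrains vessel formation, also rose, with 49.5, 39.8 and 46.9 TPM in SNP apices, against 19.8, 22.9 and 23.0 TPM in Mock apices (log2 fold change 1.03 ± 0.12, limma, adjusted p = 0.00124). *ANAC042* (JUNGBRUNNEN1), which delays senescence, was at 1.14, 0.63 and 0.72 TPM in SNP apices, against 0.14, 0.29 and 0.20 TPM in Mock apices. *ANAC072* (RD26), the abscisic acid and drought relative of *ANAC019* and *ANAC055*, rose less than either, with a log2 fold change of 1.33 ± 0.13 (SE), a difference that was not tested. These genes were chosen after their values were seen.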
